A study of Homo sapiens with 6 samples.

Results

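The genes described here are P2RY11, the 2 genes that share its locus on chromosome 19 (PPAN and the read-through gene PPAN-P2RY11), and 6 other receptors for extracellular nucleotides: P2RY1, P2RY2, P2RY6, P2RX4, P2RX5 and P2RX7. These 9 genes, matched by symbol among the 17448 genes listed, were followed in HCC2814 cells with and without MLST8. P2RY11 was chosen because of its counts in this very contrast, so its values and every sum that holds it are given as a description with no test. The other genes were chosen as relatives or neighbours of P2RY11.

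RNA-seq was performed on HCC2814, an established human lung squamous cell carcinoma (LUSC) line, cultured in DMEM with serum. WT cells (n = 3) carried a control guide and MLST8-KO cells (n = 3) a guide against MLST8, both delivered with Cas9 by lentivirus and followed by antibiotic selection. MLST8 is a subunit that mTORC1 and mTORC2 share. In this line the paper reports that MLST8 loss disrupted the binding of mTOR to RICTOR (mTORC2) but not to RAPTOR (mTORC1). It also reports less phosphorylation of AKT, an mTORC2 target, with that of S6K1, an mTORC1 target, unaffected. No cloning step is given for this line, so each library is taken as a selected pool that can still hold unedited cells, and which guide each library carries is not given in the sources used here. The 3 libraries of a group came from independent experiments.

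Nucleotides that leave a cell act on its surface through P2 receptors. The P2Y receptors are G protein-coupled and read ATP, ADP, UTP or UDP through phospholipase C and calcium or through adenylyl cyclase, whereas the P2X receptors are cation channels that ATP opens. Ectonucleotidases then degrade the nucleotides to adenosine, which has its own receptors; in epithelia and in tumors this chain is known for its part in calcium signalling, wound responses and immune suppression.

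The libraries held 14381673 to 15744154 estimated counts each, and 12951 genes passed the filter on low counts. MLST8 itself had 874, 827 and 842 counts in the WT libraries and 396, 629 and 401 in the MLST8-KO libraries, a log2 fold change of -0.96 (SE 0.15; adjusted p = 0.00339 by edgeR). Of 12 markers of squamous or basal epithelium, 12 reached 20 counts in at least 1 library, and their summed level was 16004 to 23779 CPM (estimated counts relative to a TMM-scaled library total) in WT and 26639 to 29633 in MLST8-KO cells. Of 5 immune markers 1 reached 20 counts, and the list summed to 53.5 to 78.3 CPM in WT and 40.6 to 55.3 CPM in MLST8-KO cells, nearly all of it CD68 (called lower), with PTPRC and MS4A1 at no more than 5 counts. Of 3 endothelial markers 2 reached 20 counts, and the list summed to 2.98 to 3.51 CPM in WT and 1.73 to 2.90 CPM in MLST8-KO cells, with PECAM1 called lower and CDH5 at no more than 5 counts. Of 3 fibroblast markers 1 reached 20 counts, with sums of 30.8 to 32.8 and 31.8 to 34.5 CPM and DCN at no more than 5 counts. Of 3 markers of lung adenocarcinoma or alveolus 1, NKX2-1, reached 20 counts and was higher in MLST8-KO cells (log2 fold change 1.81, adjusted p = 0.00281 by edgeR), with list sums of 1.73 to 3.98 and 8.90 to 10.7 CPM. MLST8-KO replicate 1 stood apart from the rest: 4 liver markers summed to 186 CPM in it against at most 3.09 CPM in the other MLST8-KO libraries and 5.24 CPM in WT. Results are therefore also given without that library where it changes them.

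P2RY11 encodes a P2Y receptor for ATP that is unusual in coupling to both phospholipase C and adenylyl cyclase. PPAN encodes a Brix domain protein that is needed to assemble the large ribosomal subunit. PPAN-P2RY11 is a read-through gene, whose transcripts start in PPAN and run on into the last exon of P2RY11. In GENCODE release 29 on GRCh38 all 3 are protein-coding genes of the plus strand of chromosome 19 and lie within 9.15 kb. PPAN-P2RY11 (Entrez gene 692312) spans 10106223 to 10114780, PPAN (Entrez gene 56342) 10106289 to 10111634, and P2RY11 (Entrez gene 5032) 10111538 to 10115372.

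Much of the P2RY11 transcript cannot be told from the read-through transcript by sequence. P2RY11-201 has 2 exons, and 1103 of its 1122 coding bases lie in the last exon, which starts at 10113633 as does that of both PPAN-P2RY11 transcripts. The exon ends at 10115372 in P2RY11-201 but at 10114738 in PPAN-P2RY11-201 and 10114780 in PPAN-P2RY11-202. Among the genes of this locus, the last stretch of the exon therefore belongs to P2RY11 alone, though the minus-strand gene EIF3G overlaps part of it. Of all 100-base windows of P2RY11-201, 56.9% occurred unchanged in a PPAN-P2RY11 transcript and 0.0% in a PPAN transcript. For PPAN-201, 86.6% of the windows occurred in PPAN-P2RY11. Seen from the read-through gene, 95.8% of the windows of PPAN-P2RY11-201 and 93.6% of those of PPAN-P2RY11-202 also occurred in PPAN or P2RY11. Besides that stretch and its first exon, P2RY11 differs from the read-through transcripts by the junction into the last exon. The junctions are shown here because, within the coding sequence, they are where the transcripts part.

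The 4 lines below are coding sequence of GENCODE transcripts, 5′ to 3′, with the first 30 bases of the last exon, where it is shared, in capitals. P2RY11-201 is shown from its start codon, and the other lines hold the 30 bases before the junction.
P2RY11-201: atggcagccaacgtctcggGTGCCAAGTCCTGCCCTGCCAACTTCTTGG
PPAN-P2RY11-201: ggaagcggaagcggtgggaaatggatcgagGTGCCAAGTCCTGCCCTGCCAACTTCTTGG
PPAN-P2RY11-202: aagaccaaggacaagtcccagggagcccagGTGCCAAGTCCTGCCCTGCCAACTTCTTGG
PPAN-201: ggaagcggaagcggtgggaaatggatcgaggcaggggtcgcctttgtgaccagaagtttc

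The first 19 bases of the P2RY11 line come from its own first exon, which ends at 10111740. The PPAN-P2RY11-201 line joins an exon end at 10111022 to the last exon, and the PPAN-201 line is identical up to that base and then continues in PPAN, so it holds no capitals. PPAN-P2RY11-202 leaves PPAN further on, at 10111084. The transcript PPAN-P2RY11-201 ends its coding sequence at the stop codon of P2RY11 (2382 coding bases), whereas PPAN-P2RY11-202 stops 219 coding bases into the last exon (1560 coding bases). At its end P2RY11 also overlaps EIF3G, a translation initiation factor gene on the minus strand, by 356 bases.

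**Figure D1:**
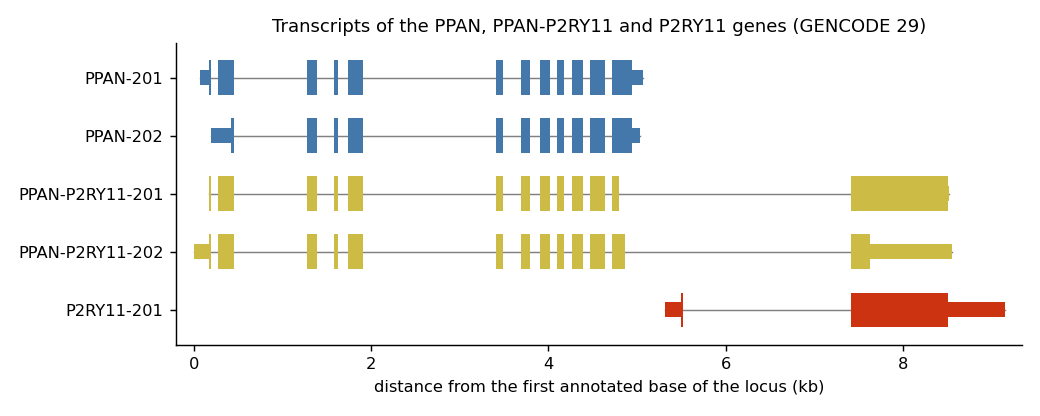
Exons (boxes) and introns (lines) of the 5 GENCODE transcripts of the locus, drawn to scale against the distance in kb from its first annotated base, with coding sequence as tall boxes. The last exon starts at the same base in P2RY11-201 and both PPAN-P2RY11 transcripts and runs on further in P2RY11-201, and PPAN ends before it.

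Replicates 1, 2 and 3 of WT listed P2RY11 at 51, 168 and 174 counts, and every MLST8-KO replicate listed it at 0. The groups did not overlap, and WT replicate 1 was well below the other WT libraries. The WT mean was 9.18 ± 5.04 CPM (SD, n = 3). With 3 counts per library as the upper limit of a 0, which is 0.185 to 0.194 CPM here, P2RY11 was at least 47.4-fold lower in MLST8-KO cells. Measured against WT replicate 1 alone, at 3.39 CPM, it was at least 17.5-fold lower. This limit covers counting error only and not how reads were divided between overlapping genes. In bulk RNA, fewer cells that express a gene and less RNA per cell cannot be told apart.

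P2RY11 was chosen for these counts, so the pattern is given as a description. No other gene in the table had it. P2RY11 was the 1 gene of 17448 at 0 in every MLST8-KO library and at 20 or more counts in every WT library, and 0 genes were at 0 in every WT library and at 20 or more in every MLST8-KO library. Over the 6 samples, the genes whose log2(CPM + 1) followed that of P2RY11 most closely were RNF139 (Pearson's r = 0.9987), ZC3H15 (0.9977) and DCUN1D2 (0.9971), none of which was near 0. RNF139 ranged from 82.1 to 95.7 CPM in WT and from 65.1 to 66.7 CPM in MLST8-KO cells. Of 12194 genes with a mean of at least 20 counts, 48 reached an r of 0.99, and all share the same 6 libraries and the same split between the groups.

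PPAN-P2RY11, with which P2RY11 shares sequence of its last exon, was not called higher where P2RY11 was listed at 0. Its counts were 786, 659 and 750 in replicates 1, 2 and 3 of WT. For MLST8-KO the counts were 555, 621 and 821, so that MLST8-KO replicate 3 lay above every WT library and the other 2 below. The level was 50.5 ± 4.56 CPM in WT and 42.2 ± 9.03 CPM in MLST8-KO cells (SD, n = 3 each), a log2 fold change of -0.26 (95% interval -0.57 to 0.05; adjusted p = 0.175 by edgeR), which did not pass the threshold of 0.05. Without MLST8-KO replicate 3 the log2 fold change was -0.45 (adjusted p = 0.025 by edgeR), so the call depends on that library.

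The counts of PPAN were 364, 396 and 374 in the WT replicates and 430, 452 and 472 in the MLST8-KO replicates. Each MLST8-KO library was above each WT library, but by little. In CPM the groups were 26.1 ± 1.73 and 28.6 ± 1.38 (SD, n = 3 each), and the log2 fold change of 0.13 (95% interval -0.08 to 0.34; adjusted p = 0.309 by edgeR) did not pass the threshold. Groups that do not overlap are common in these data, at 49.1% of the 12951 genes tested, with 24.9% higher and 24.2% lower in MLST8-KO cells.

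Because reads from shared sequence can be listed under any of the 3 genes, their values were also summed per library, as a description. How reads were divided between the genes was not tested. In counts, P2RY11, PPAN and PPAN-P2RY11 added up to 1201, 1224 and 1298 in the WT replicates. The sums were 985, 1073 and 1293 in the MLST8-KO replicates, the last of which lay within the WT range. In CPM, the sum was 79.7, 84.3 and 93.7 in the WT libraries and 63.5, 66.3 and 82.8 in the MLST8-KO libraries, so the groups overlapped through MLST8-KO replicate 3 and WT replicate 1.

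The mean sum was 85.9 ± 7.13 CPM in WT and 70.9 ± 10.4 CPM in MLST8-KO cells (SD, n = 3 each), a ratio of 0.825. Of the difference of -15.0 CPM, P2RY11 made up -9.18 CPM, PPAN-P2RY11 -8.32 CPM and PPAN 2.5 CPM. Without MLST8-KO replicate 1, which carried the liver transcripts, the ratio of the sums was 0.868, and without MLST8-KO replicate 3 it was 0.756.

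P2RY11 and PPAN-P2RY11, the pair that shares sequence of the last exon, were also summed. Their CPM sum was 55.5, 57.0 and 66.7 in the WT libraries and 35.8, 38.3 and 52.6 in the MLST8-KO libraries. All MLST8-KO libraries were below all WT libraries, and the ratio of the means was 0.707. PPAN-P2RY11 alone overlapped between the groups, so this separation depends on the counts for which P2RY11 was chosen and is a description. Of all genes tested, 24.2% were lower in MLST8-KO cells without overlap. PPAN and PPAN-P2RY11 without P2RY11 summed to 76.7 ± 4.22 CPM in WT and 70.9 ± 10.4 CPM in MLST8-KO cells (SD, n = 3 each). This difference of -5.82 CPM was smaller than the SD of the MLST8-KO cells, and the groups overlapped, at 72.7 to 81.1 CPM against 63.5 to 82.8 CPM.

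**Figure D2:**
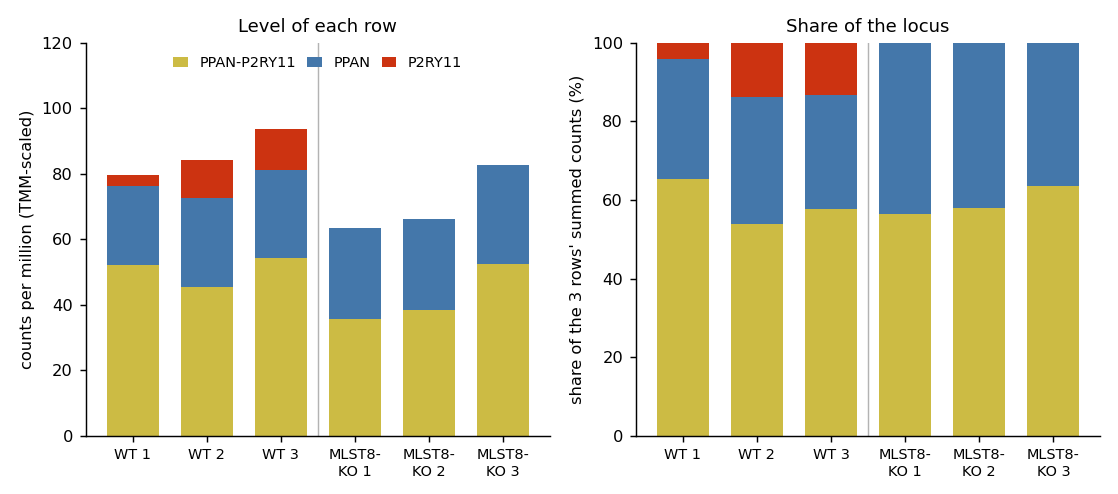
Stacked bars of the 3 genes in each library, as TMM-scaled CPM (left) and as a percentage of their summed counts (right). P2RY11 (red) is present in the 3 WT bars and at 0 in the 3 MLST8-KO bars, and the MLST8-KO bar of replicate 3 reaches 82.8 CPM, within the WT range of 79.7 to 93.7 CPM.

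As shares of the summed counts, P2RY11 took 4.25%, 13.8% and 13.4% of the WT replicates and 0% of each MLST8-KO replicate. The share of PPAN-P2RY11 was 59.0% ± 5.88 (SD, n = 3) in WT and 59.2% ± 3.77 (SD, n = 3) in MLST8-KO cells, and the groups overlapped. The share of PPAN was 30.5% ± 1.79 (SD, n = 3) in WT and 40.8% ± 3.77 (SD, n = 3) in MLST8-KO cells, with no overlap. These shares add up to 100% in each library, so when 1 is at 0 the others must take its place.

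Within WT cells the division between P2RY11 and PPAN-P2RY11 also varied. WT replicate 1 had the fewest P2RY11 counts (51) and the most PPAN-P2RY11 counts (786). WT replicate 3 had the most P2RY11 counts (174), with 750 PPAN-P2RY11 counts. The sum of the pair was 837, 828 and 924 counts in WT replicates 1, 2 and 3. Whether reads passed between the genes was not tested. The ratio of PPAN-P2RY11 to PPAN counts was 2.158, 1.664 and 2.005 in the WT libraries and 1.29, 1.372 and 1.738 in the MLST8-KO libraries. It uses no P2RY11 count, but PPAN-P2RY11 can hold reads from sequence shared with P2RY11. For this ratio the groups overlapped, and an exact two-sided permutation test gave p = 0.2. With 3 samples against 3 that test cannot go below 0.1, so it could not pass the threshold of 0.05.

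The deposited FPKM values divide each count by a transcript length, so the count over the FPKM shows whether that length moved between libraries. For PPAN this implied length stayed within 99.05% to 100.53% of the WT mean in all 6 libraries, for PPAN-P2RY11 within 99.64% to 100.1%, and for P2RY11 within 99.83% to 100.15% of the WT mean in the WT libraries. The lengths used for PPAN and PPAN-P2RY11 therefore hardly differed between the groups. P2RY11, at 0 in MLST8-KO cells, has no such value there.

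Other read-through genes give a background for this locus. Of 57 loci with a read-through gene and both of its parts in the table, 55 had a mean sum of at least 100 counts. PPAN-P2RY11 was the 1 locus with a gene at 0 in every MLST8-KO and at 20 or more counts in every WT library, and 0 loci had the opposite pattern. As P2RY11 was chosen for these counts, this too is a description. The read-through gene held a median of 2.33% of the counts of its locus in WT cells, so PPAN-P2RY11, at 59.0%, was among the 4 loci at 50% or more, beside TVP23C-CDRT4 (66.6%), C8orf44-SGK3 (55.6%) and ISY1-RAB43 (50.3%).

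At other loci, too, the shares of the listed genes differed widely between libraries, in some cases within a group. Whether reads passed between the genes of these loci was not tested. Of the 55 loci, the share of the gene named last was lower in all MLST8-KO than in all WT libraries at 8, PPAN-P2RY11 among them, and higher at 3. In CPM, 24.2% of all genes tested were lower and 24.9% higher without overlap. Those percentages are of the levels of single genes and not of shares within a locus, so the measures are not alike. By the size of the change in the share of the gene named last, PPAN-P2RY11 ranked 7. This rank is a description, since P2RY11 was chosen for its counts. At C8orf44-SGK3, the read-through gene had 71, 37 and 89 counts in WT and 19, 17 and 18 in MLST8-KO replicates, while SGK3, which encodes a kinase related to AKT, had 28, 63 and 40 in WT and 124, 136 and 84 in MLST8-KO replicates. At ARMCX5-GPRASP2, GPRASP2 had 60 and 57 counts in MLST8-KO replicates 1 and 2 but 0 in replicate 3, in which the read-through gene had 100 counts, against 27 and 9 in replicates 1 and 2.

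**Figure D3:**
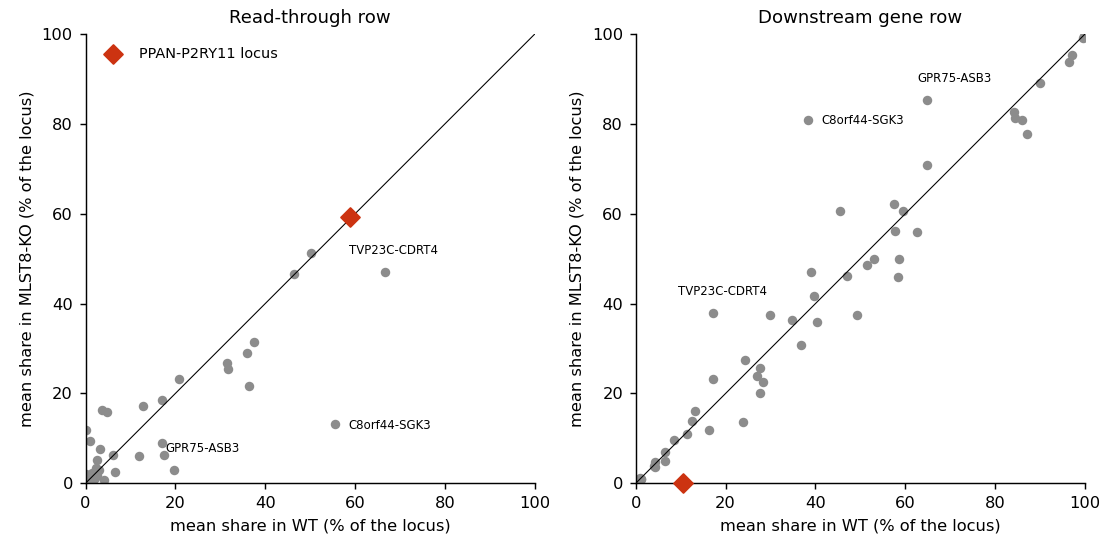
Mean share of a locus's counts, in percent, in WT (x axis) and MLST8-KO cells (y axis), for the read-through gene (left) and the gene named last (right) of each of 55 loci, with the line of equal shares. PPAN-P2RY11 lies on the line for the read-through gene (59.0% and 59.2%) and at 0 in MLST8-KO cells for P2RY11, while C8orf44-SGK3 lies far from the line in both panels.

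Within 50 kb of the locus 8 genes are annotated and 4 are in the table, of which 3 were tested, with 1 higher and 0 lower, beside 16.3% higher and 15.7% lower of all genes tested. EIF3G, which overlaps the end of P2RY11, had 1766, 1607 and 2083 counts in WT and 1708, 1755 and 1879 in MLST8-KO replicates, a log2 fold change of -0.16 (adjusted p = 0.307 by edgeR). DNMT1, the maintenance DNA methyltransferase gene 17.97 kb away, was higher in MLST8-KO cells, at 1116, 1285 and 1099 counts against 761, 706 and 618 in WT (log2 fold change 0.63, SE 0.09; adjusted p = 0.00281 by edgeR). C19orf66 did not pass the threshold (log2 fold change 0.14, adjusted p = 0.491 by edgeR), and ANGPTL6, at 0 to 10 counts, did not pass the filter. Whether the counting used the strand is not given in the sources used here, so reads from the 356 bases shared by P2RY11 and EIF3G could have been listed under either gene.

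Of the 6 other purinergic receptors, 5 passed the filter on low counts. P2RY1 rose, which makes 1 of 5 higher, beside 16.3% of the 12951 genes tested, and 0 of 5 were lower, beside 15.7%. P2RY1 is a receptor for ADP that couples to phospholipase C. It lies on chromosome 3 (Entrez gene 5028; 152834693 to 152841439, plus strand).

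Counts of P2RY1 were 46, 51 and 31 in the WT replicates and 120, 115 and 131 in the MLST8-KO replicates. Every MLST8-KO library was above every WT library by a wide margin. The level was 2.93 ± 0.646 CPM in WT and 7.74 ± 0.642 CPM in MLST8-KO cells (SD, n = 3 each), a log2 fold change of 1.39 (SE 0.19, 95% interval 0.97 to 1.82; adjusted p = 0.00281 by edgeR). It passed the threshold under every alternative tried, with a log2 fold change between 1.24 and 1.54 when 1 library was left out, and of 1.40 (adjusted p = 0.0198 by edgeR) without MLST8-KO replicate 1. The squamous marker sum, 16004 to 23779 CPM in WT and 26639 to 29633 CPM in MLST8-KO cells, also separated the groups in the same direction. Of its markers SFN, EPCAM and CDH1 did not pass the threshold (log2 fold changes -0.29, 0.01 and 0.28), and the rest were called higher. The part of this sum in the change of P2RY1 was not tested.

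P2RY2, a receptor for ATP and UTP with the same coupling, is on chromosome 11 (Entrez gene 5029; 73218298 to 73236352, plus strand), and P2RY6, a receptor for UDP, lies 28.2 kb from it (Entrez gene 5031; 73264505 to 73298617, plus strand). P2RY2 had 189, 141 and 121 counts in WT and 198, 202 and 242 in MLST8-KO replicates. After scaling, the groups touched, at 12.5, 9.71 and 8.73 CPM in WT and 12.8, 12.5 and 15.5 CPM in MLST8-KO replicates. The log2 fold change was 0.39 (95% interval 0.04 to 0.75; adjusted p = 0.0833 by edgeR) and did not pass the threshold.

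The call on P2RY2 depended on how its values were made and on WT replicate 1. In deposited TPM, which is per length, its groups did not overlap, at 3.43, 3.27 and 2.60 in WT and 5.27, 4.87 and 5.77 in MLST8-KO replicates. Its implied length was 111.24%, 90.72% and 98.04% of the WT mean in the WT libraries and 78.74%, 85.27% and 84.38% in the MLST8-KO libraries, a mean change of -17.2%. Of 10763 genes with an FPKM over 1 in every library, 79 (0.734%) changed as far, against a median absolute change of 0.323%. On log2(FPKM + 1) P2RY2 passed the threshold (difference 0.50, adjusted p = 0.00999 by limma), as it did without WT replicate 1 (log2 fold change 0.56, adjusted p = 0.0137 by edgeR). So the counts of P2RY2 and its per-length values give different sizes of change, and the transcripts behind the implied lengths were not analysed here.

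P2RY6 was near the limit of detection, with 7, 11 and 3 counts in WT and 8, 8 and 8 in MLST8-KO replicates. It did not pass the filter on low counts.

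P2RX4 and P2RX7, channels that are widespread in epithelial and immune cells, are neighbours on chromosome 12, 21.8 kb apart. P2RX4 (Entrez gene 5025; 121209857 to 121234106, plus strand) opens to ATP and is found in the plasma membrane and in lysosomes. It had 345, 358 and 347 counts in WT and 313, 306 and 337 in MLST8-KO replicates. Each MLST8-KO library was below each WT library, by little. The level was 24.2 ± 1.15 CPM (SD, n = 3) in WT and 20.2 ± 1.34 CPM (SD, n = 3) in MLST8-KO cells. Its log2 fold change of -0.26 (95% interval -0.48 to -0.04; adjusted p = 0.0701 by edgeR) did not pass the threshold, nor did it under any alternative tried.

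P2RX7 (Entrez gene 5027; 121132819 to 121188032, plus strand) needs far more ATP to open and is known for inflammasome activation. It had 80, 65 and 89 counts in WT and 60, 76 and 59 in MLST8-KO replicates. The groups overlapped, with the middle MLST8-KO replicate above the lowest WT library. The log2 fold change was -0.39 (95% interval -0.81 to 0.04; adjusted p = 0.141 by edgeR), which did not pass the threshold.

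P2RX5 (Entrez gene 5026), a P2X channel, lies on the minus strand of chromosome 17, from 3672199 to 3696404. It had 32, 35 and 23 counts in WT and 17, 34 and 37 in MLST8-KO replicates. The groups overlapped, and MLST8-KO replicate 1 was the lowest of the 6 libraries. Its log2 fold change was -0.15 (95% interval -0.84 to 0.53; adjusted p = 0.723 by edgeR), and without MLST8-KO replicate 1 the sign turned, to 0.11. TAX1BP3, which lies 3.5 kb from P2RX5 and with it forms an annotated read-through gene, did not pass the threshold either (log2 fold change 0.28, adjusted p = 0.0789 by edgeR). That read-through gene was not analysed here.

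**Figure D4:**
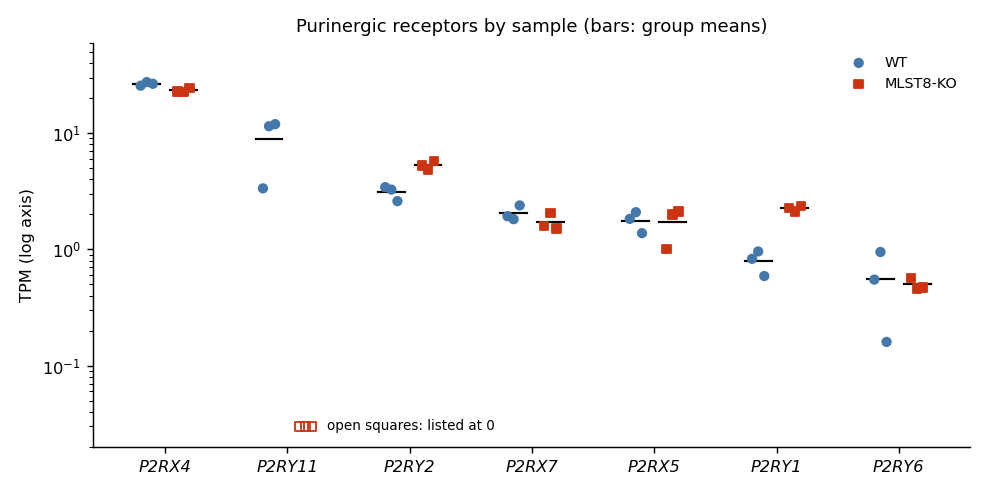
Deposited TPM of the 7 purinergic receptors among the genes described, on a log axis, with 1 point per library and bars at the group means, and open squares for values listed at 0. P2RY1 lies at 0.59 to 0.96 in WT and 2.12 to 2.36 in MLST8-KO cells, P2RX4 is the most abundant in both, and P2RY11 is at 3.35 to 11.95 in WT and at 0 in MLST8-KO cells.

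Levels can be compared between genes in TPM, which is per transcript length. In WT cells the mean TPM was 28.9 for PPAN-P2RY11, 26.6 for P2RX4, 20.1 for PPAN, 8.92 for P2RY11, 3.10 for P2RY2, 2.05 for P2RX7, 1.77 for P2RX5, 0.793 for P2RY1 and 0.553 for P2RY6. Neighbours in this order whose libraries overlapped were PPAN-P2RY11 and P2RX4, P2RY11 and P2RY2, P2RX7 and P2RX5, and P2RY1 and P2RY6. P2RY11 was thus the second of the 7 receptors in WT cells by its mean, though in WT replicate 1 its TPM of 3.35 was below the 3.43 of P2RY2.

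In MLST8-KO cells the mean TPM was 25.9 for PPAN-P2RY11, 23.9 for PPAN, 23.3 for P2RX4, 5.30 for P2RY2, 2.25 for P2RY1, 1.72 for P2RX7, 1.71 for P2RX5 and 0.5 for P2RY6, with P2RY11 at 0. The libraries of PPAN-P2RY11, PPAN and P2RX4 overlapped, as did those of P2RX7 and P2RX5. P2RY1, next to last of the receptors in WT cells, stood above P2RX7 in every MLST8-KO library.

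The rest of the P2 receptor families were barely present. Of 7 P2Y receptors other than P2RY11, 5 were in the table and 2 passed the filter, and of 7 P2X receptors 7 were in the table and 4 passed. P2RX6 had 13, 11 and 17 counts in WT and 12, 6 and 9 in MLST8-KO replicates, a log2 fold change of -0.72 (adjusted p = 0.179 by edgeR). P2RX2 had 2 to 9 counts, and P2RX1, P2RX3, P2RY12 and P2RY14 had 0 to 4 counts in any library. The median log2 fold change of the 4 P2X receptors tested was -0.32, and 0 of them passed the threshold in either direction.

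Around the receptors, 7 lists of purinergic genes held 62 genes other than P2RY11, of which 42 were tested, with 9 higher and 3 lower. That is 28.57%, against 32.0% of the 12951 genes tested, and the median log2 fold change was 0.05 against 0.00 for all genes tested. Changes in the purinergic genes were therefore about as frequent as in the whole table. The part played by the squamous marker sum, which rose with the group as given above, was not tested for any of these lists.

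Of the adenosine receptors, 2 of 4 were tested and both were called lower, beside 15.7% lower of all genes tested. ADORA2A, which raises cyclic AMP and is best known from lymphocytes, had 33, 43 and 52 counts in WT and 16, 24 and 18 in MLST8-KO replicates, with all MLST8-KO libraries below all WT libraries (log2 fold change -1.27, SE 0.28; adjusted p = 0.0096 by edgeR). ADORA2B, the low-affinity receptor of epithelia, had 1084, 890 and 749 counts in WT and 727, 769 and 856 in MLST8-KO replicates. Its log2 fold change of -0.33 (adjusted p = 0.049 by edgeR) lay at the threshold, the groups overlapped, and the call was lost in 8 of 13 alternatives, 5 of which leave out 1 library (adjusted p up to 0.164, without MLST8-KO replicate 1). ADORA1, at 1 to 7 counts, did not pass the filter.

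Of 8 ectonucleotidases 6 were tested, with 1 higher and 0 lower (16.67% called, against 32.0% of all genes tested). ENTPD3, which removes phosphates from extracellular ATP and ADP, had 359, 273 and 172 counts in WT and 461, 456 and 449 in MLST8-KO replicates (log2 fold change 0.65, SE 0.19; adjusted p = 0.024 by edgeR). Its call was lost without WT replicate 2 or without any 1 of the MLST8-KO replicates (adjusted p = 0.0688 to 0.0774 by edgeR). ENTPD1 and NT5E, the pair best known for making adenosine from ATP in tumors, had log2 fold changes of 0.02 (adjusted p = 0.877 by edgeR) and 0.06 (adjusted p = 0.86 by edgeR). ENPP1 and ALPL lay above WT in all MLST8-KO libraries without passing the threshold, with log2 fold changes of 0.66 (adjusted p = 0.0823 by edgeR) and 0.39 (adjusted p = 0.0881 by edgeR). Of the enzymes and transporters that clear adenosine, 5 of 7 were tested and 0 passed the threshold, against 32.0% of all genes tested. The nucleoside transporter SLC29A1 was the nearest (log2 fold change 0.43, adjusted p = 0.0595 by edgeR).

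Among 8 channels and transporters through which ATP can leave cells, 6 were tested, with 3 higher and 1 lower (66.67% called, against 32.0% of all genes tested). This list, like the others here, was written with earlier results of these data known, so its share is a description. The 3 that rose encode connexins, which form gap junctions and hemichannels of squamous epithelium. GJB6 had 1540, 836 and 533 counts in WT and 3315, 3081 and 2455 in MLST8-KO replicates (log2 fold change 1.50, SE 0.28; adjusted p = 0.00516 by edgeR). GJA1 changed by a log2 fold of 1.07 (SE 0.16; adjusted p = 0.00339 by edgeR) and GJB2 by 0.75 (SE 0.16; adjusted p = 0.00812 by edgeR), and in all 3 the lowest MLST8-KO library was above the highest WT library. LRRC8A, the essential subunit of the volume-regulated anion channel, fell from 3151, 3775 and 5032 counts in WT to 2362, 2555 and 2740 in MLST8-KO replicates (log2 fold change -0.78, SE 0.17; adjusted p = 0.00843 by edgeR). PANX1, the pannexin most often tied to ATP release, had a log2 fold change of -0.21 (adjusted p = 0.0639 by edgeR) and PANX2 of -0.02 (adjusted p = 0.923 by edgeR).

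Downstream of the receptors, 17 of 21 effector genes were tested, with 4 higher and 0 lower (23.53% called, against 32.0% of all genes tested). PLCB3, a phospholipase C that the G protein subunit of P2RY1 and P2RY2 activates, had 374, 313 and 244 counts in WT and 549, 573 and 487 in MLST8-KO replicates (log2 fold change 0.67, SE 0.13; adjusted p = 0.0057 by edgeR). PLCB1 rose as well (log2 fold change 0.77, adjusted p = 0.0253 by edgeR), as did GNAQ, which encodes that G protein subunit (0.30, adjusted p = 0.0319 by edgeR), and the adenylyl cyclase gene ADCY3 (0.29, adjusted p = 0.0313 by edgeR). In all 4, each MLST8-KO library was above each WT library, yet the calls of PLCB1, GNAQ and ADCY3 were lost without replicate 2 or 3 of WT or replicate 1 or 2 of MLST8-KO (adjusted p = 0.0555 to 0.133 by edgeR), and that of ADCY3 also without MLST8-KO replicate 3 (adjusted p = 0.087). GNAS, which encodes the subunit that couples P2RY11 and the ADORA2 receptors to adenylyl cyclase, had a log2 fold change of 0.03 (adjusted p = 0.76 by edgeR).

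**Figure D5:**
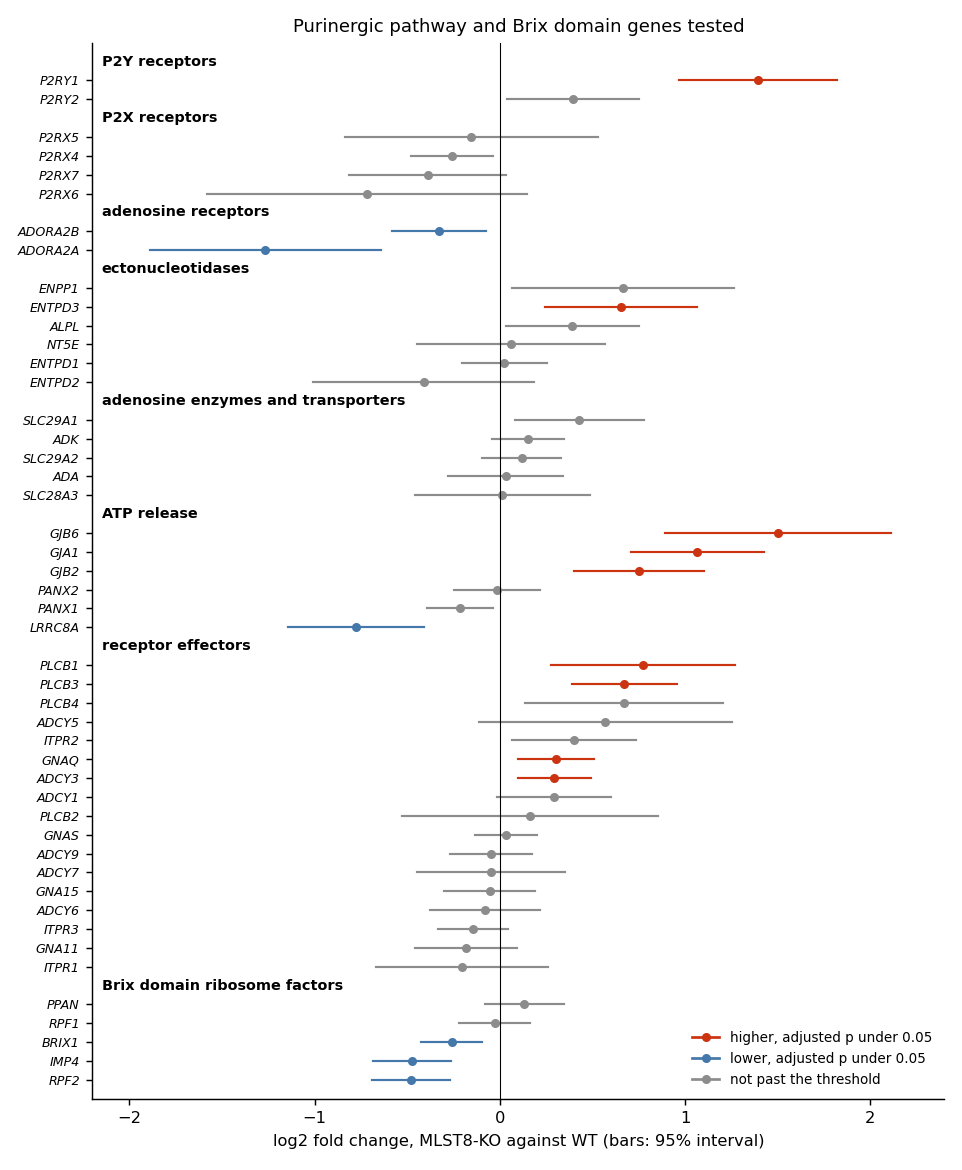
Log2 fold change of MLST8-KO against WT (x axis) with its 95% interval, from edgeR, for the purinergic genes and the Brix domain genes that were tested, grouped by list and colored where the adjusted p was under 0.05. P2RY1 and the connexins GJB6 and GJA1 lie furthest to the right and ADORA2A furthest to the left, and P2RY11 is left out because it was not tested.

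PPAN was also set beside the other ribosome assembly factors with a Brix domain, all of which were tested. Of these 5 genes, 3 fell and 0 rose, beside 15.7% lower and 16.3% higher of the 12951 genes tested, with a median log2 fold change of -0.26. RPF2 had 910, 1041 and 1003 counts in WT and 709, 833 and 772 in MLST8-KO replicates (log2 fold change -0.48, SE 0.10; adjusted p = 0.00652 by edgeR). IMP4 changed by -0.47 (adjusted p = 0.00684 by edgeR) and BRIX1 by -0.26 (adjusted p = 0.0247 by edgeR), each with all MLST8-KO libraries below all WT libraries. The call of BRIX1 was lost without WT replicate 2, MLST8-KO replicate 1 or MLST8-KO replicate 2 (adjusted p = 0.0801 to 0.109 by edgeR) and under other scalings. RPF1 (-0.03, adjusted p = 0.826 by edgeR) and PPAN (0.13, adjusted p = 0.309 by edgeR) did not pass the threshold, and whether PPAN differed from the other members was not tested.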

How the data were processed

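RNA from 3 WT and 3 MLST8-KO samples of HCC2814 cells was made into polyA-selected libraries and sequenced on a DNBSEQ platform. After removing poor reads, the authors used HISAT to align to GRCh38.p12 and BowTie2 to assign reads to genes, and deposited estimated counts (not normalized), FPKM and TPM (both scaled by length and depth) per gene. The counting tool, its strand setting and the versions are not given in the sources used here. Columns of the authors' own DESeq2 comparison were not used. Since 12.4% of the estimated counts were not whole, they were rounded.

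MLST8-KO and WT samples were compared without pairing by edgeR 4.0.16 in R 4.3.3 (TMM, filterByExpr by group, quasi-likelihood test, Benjamini-Hochberg adjustment over 12951 genes, threshold 0.05). The comparison was repeated with limma 3.58.1 on log2(FPKM + 1) and with DESeq2 1.42.0. In edgeR it was repeated with upper quartile scaling or the size factors of DESeq2, unfiltered, with a minimum of 10 counts in each sample, with the replicate number as a block, with the locus's 3 genes merged, and without each sample in turn. Between replicates of a group the chi-square per gene was 6.71 to 25.2, above sampling noise.

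Coordinates and transcripts are those of GENCODE 29, which is not the annotation the authors used, so that their transcripts can differ. The genes named are all members, every gene of the lists that passed the threshold, list genes with a mean of at least 10 counts (all of them in the plot of log2 fold changes, some in the text), the neighbours within 50 kb, TAX1BP3, MLST8, and the 3 genes most like P2RY11. The loci named beside PPAN-P2RY11 and the genes named at low counts were picked after their values were seen. The members and lists were chosen with earlier results of these data known.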

Additional observations from a re-analysis of the deposited data

How the results depend on the processing

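P2RY1 kept its direction and stayed past the threshold in all 13 alternatives, and P2RX4, P2RX7, PPAN and EIF3G stayed short of it. The number of purinergic receptors higher in MLST8-KO cells went from 1 to 2 with limma on log2(FPKM + 1) and without WT replicate 1 (range 1 to 2 when 1 library was left out), in both by adding P2RY2. PPAN-P2RY11 passed the threshold only without MLST8-KO replicate 3 (log2 fold change -0.45; range -0.45 to -0.15 when 1 library was left out). P2RX5 changed sign without MLST8-KO replicate 1 (0.11; range -0.36 to 0.11 when 1 library was left out). With the 3 genes of the locus merged into 1 before the fit, the value for the locus was -0.28, opposite in sign to that of PPAN alone, because the merged gene holds P2RY11 and PPAN-P2RY11. The ratio of the locus sums was 0.863 with library totals in place of TMM, 0.836 on FPKM and 0.756 to 0.868 when 1 library was left out.

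Over the purinergic and Brix domain lists, 9 genes were higher, or 5 to 13 when 1 library was left out, the lowest being reached without WT replicate 2 and without replicate 1 or 2 of MLST8-KO. The number of lower genes was 6, or 4 to 6. Over all genes, 2116 were higher and 2030 lower. When 1 library was left out there were 971 to 2692 higher and 850 to 2651 lower genes: 971 and 1044 without WT replicate 2, 979 and 850 if MLST8-KO replicate 1 was dropped, and 1136 and 1091 if MLST8-KO replicate 2 was. The share of calls that were higher was 51.0%, and 62.0% with upper quartile scaling and 63.8% with limma.

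Samples with the same replicate number deviated together only weakly (correlations of 0.105, 0.0565 and 0.140), although every sample correlated best with its own number, so the numbers were not taken to pair the samples. With a replicate block 4418 genes passed in place of 4146. The log2 fold change of PPAN-P2RY11 was then -0.27 (adjusted p = 0.0759 by edgeR), ADORA2B lost its call (adjusted p = 0.0618 by edgeR) and TAX1BP3 gained one (adjusted p = 0.0356 by edgeR). At 14381673 to 15744154 counts per library, genes with few counts, such as P2RY6, were left out by the filter, and how reads were divided between P2RY11 and PPAN-P2RY11 cannot be recovered from the values deposited per gene.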
